A study of Mus musculus with 2 samples.

Results

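The genes described here make, break down and regulate polyamines, or supply the ornithine from which polyamines are made. The set was 10 genes chosen by symbol: the arginases Arg1 and Arg2, the biosynthetic enzymes Odc1, Amd1, Srm and Sms, the regulators Oaz1 and Azin1, and the catabolic enzymes Sat1 and Smox. Of these 10, 7 had an array row that named 1 gene and passed the low-signal filter, out of 19492 genes measured in the same way. Sms and Oaz1 occurred only on rows that list further genes, and no row is named for Amd1 in the annotation used here. RNA came from the corneal epithelium of C57BL/6 mice of both sexes at an age of 8 weeks. One group was the injured eye, whose epithelium had been removed in its whole thickness out to the limbus with a rust ring remover of 0.5 mm and had regrown for about 48 hours, until 10% of the wound area was left. The other group was the uninjured fellow eye of the same wounded animals, so the control epithelium was contralateral and did not come from unwounded mice. There was 1 array in each group, and how many mice an array represents is not stated in those labels.

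Arginase splits arginine into urea and ornithine. Ornithine decarboxylase, Odc1, turns ornithine into putrescine, and spermidine synthase, Srm, and spermine synthase, Sms, lengthen it with aminopropyl groups that Amd1 prepares from S-adenosylmethionine. Antizyme, Oaz1, binds ornithine decarboxylase and sends it to the proteasome, while the antizyme inhibitor Azin1 releases it, so that much of the control of this enzyme lies beyond its RNA. Growing epithelia need polyamines, and spermidine is also the source of hypusine, the modified residue of the translation factor eIF5A.

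Each value below is a deposited intensity, taken to be on the log2 scale, and each difference is injured minus uninjured on that scale. A gene was called higher or lower at a difference of 1 or more, which is 2-fold. With 1 array in each group no test was possible and no difference has a replicate check. As a technical error, separate rows for a single gene were compared, and their differences had a pooled SD within genes of 0.243 over 538 rows of 254 genes. In bulk tissue, fewer cells of a type and less RNA per cell cannot be told apart.

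Spermidine synthase was the 1 measured member past 2-fold. Among the 7 measured members the 2-fold call gave 1 higher and 0 lower, beside 4.14% of all measured genes higher and 3.92% lower. The other 6 members lay between -0.48 and 0.55. Differences were above 0 for 5 members and below 0 for 2, beside 57.0% of all measured genes at least 0.01 above 0. The members' median was 0.20 beside 0.06 over all measured genes. At 1.5-fold the count was again 1 higher and 0 lower, beside 11.1% and 8.76% of all measured genes. Differences of Azin1 and Arg2 were smaller than the SD between rows of one gene.

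**Figure D1:**
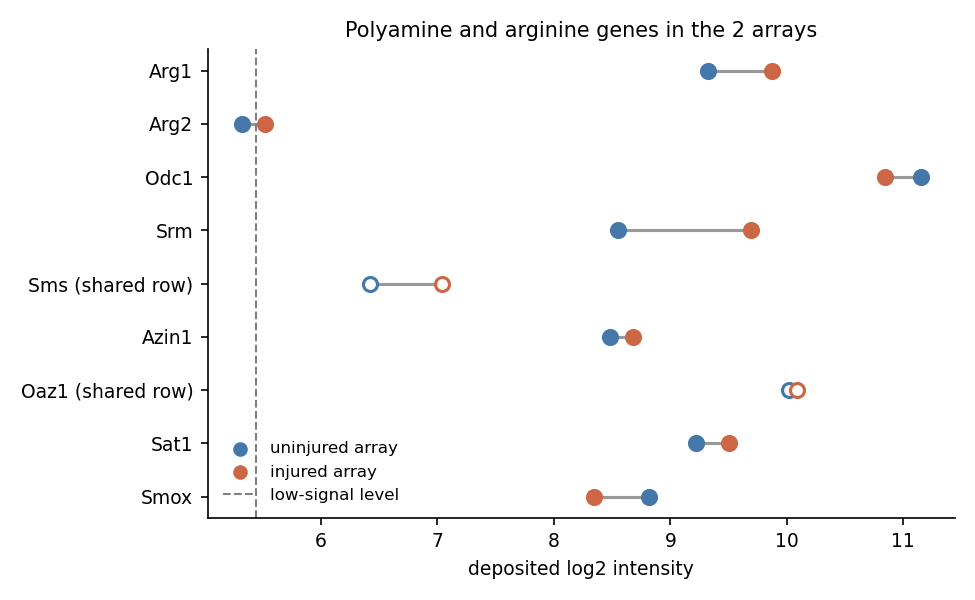
The x axis is the deposited log2 intensity, with 1 point for the uninjured and 1 for the injured array of each gene, and the dashed line is the low-signal level of 5.44. Open points are rows that list a member beside further genes. The widest gap is that of Srm, from 8.55 to 9.69, and the injured point lies left of the uninjured one for Odc1 and Smox.

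Arginine is the substrate at the head of the pathway, and the 2 arginases read differently against the low-signal level. Arg1, the cytosolic arginase, read 9.32 in the uninjured and 9.87 in the injured array. This difference of 0.55 (1.46-fold) was 2.27 times the SD between rows of one gene and below the 2-fold call. Of all measured genes 12.0% were at least as far above 0. Arg2, the mitochondrial arginase, read 5.32 in the uninjured array, below the low-signal level of 5.44, and 5.52 in the injured array. Its difference of 0.20 therefore rests on values at the edge of the measurable range.

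Arg1 is also a gene of alternatively activated macrophages, so markers of that lineage were read beside it. Of 19 macrophage and monocyte markers 7 were below the low-signal level in both arrays, among them Adgre1 (4.50 uninjured, 4.58 injured), the leukocyte antigen Ptprc (4.29 and 4.39), and Mrc1 (4.63 and 4.66), Chil3 (3.95 in both) and Retnla (4.14 and 4.07), which mark the alternatively activated state. Others were measured, among them Cd68 (8.92 and 9.12), Cd14 (6.02 and 6.97), Lyz2 (5.46 and 6.33) and C1qb (6.40 and 6.97). Csf1r (5.82 and 6.01), Tyrobp (5.49 and 5.70), Fcgr1 (5.30 and 5.56), C1qa (6.48 and 6.45) and C1qc (5.70 and 5.77) differed little, and Mertk (6.14 and 5.58) was below its control value. The uninjured Fcgr1 value is below the low-signal level of 5.44. Of the 12 measured markers 9 differences were above 0 and 3 below, beside 57.0% of all measured genes at least 0.01 above 0. At 1.5-fold 3 of the 12 were higher and 1 lower, beside 11.1% and 8.76% of all measured genes. The summed linear intensity of the 19 markers was 2500 in the uninjured and 2440 in the injured array. Without Itgam, a bright row called lower, the other 18 summed to 1270 and 2020. That sum still holds Ly6c2, the marker with the largest difference (2.75), and no sum without Ly6c2 was computed. At 2-fold, Ly6c2 was higher (6.55 uninjured, 9.30 injured) and Itgam lower (10.26 and 8.72), beside 4.14% and 3.92% of all measured genes. The median difference of the 12 measured markers was 0.20. Their part in the Arg1 difference was not tested.

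Odc1, the entry enzyme of polyamine synthesis, was not above its control value in the injured epithelium. It read 11.15 in the uninjured and 10.84 in the injured array, a difference of -0.31 that was 1.27 times the SD between rows of one gene. This was the opposite sign to Srm, the next enzyme in the same route. Across 9 alternative settings its difference ran from -0.40 to -0.30. Odc1 has 1 row, so the filters and row choices among these settings could not change its value. Promoter windows from RefSeq (GRCm38.p6) were used for 6 of the 10 members, 7 windows in all, and the 250 bases before each start were searched. Those of Srm, Azin1, Arg1 and Arg2 were not analysed here. The letters searched were GGGCGG on either strand (the GC box), CACGTG, which reads the same on both strands (the E-box), and TATAAA on the gene's strand (the TATA box). Over all 32851 such windows of 27025 genes, 32.7% held a GC box, 6.02% an E-box and 7.59% a TATA box. Among the 7 windows of members 5 held a GC box, 1 held an E-box and 0 held the TATA letters. The window of Odc1 is shown because this gene gates the pathway, and it held 4 GC boxes, printed in capitals.
Odc1 promoter, chr12:17544623-17544872, plus strand: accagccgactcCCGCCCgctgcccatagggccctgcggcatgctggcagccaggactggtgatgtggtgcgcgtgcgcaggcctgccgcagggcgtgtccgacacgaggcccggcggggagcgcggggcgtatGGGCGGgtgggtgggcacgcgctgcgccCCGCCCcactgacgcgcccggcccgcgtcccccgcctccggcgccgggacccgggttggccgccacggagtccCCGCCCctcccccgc

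Srm, which joins an aminopropyl group to putrescine to give spermidine, had the largest difference of the measured members. It read 8.55 in the uninjured and 9.69 in the injured array, 2.20-fold higher in the injured epithelium. Its difference of 1.14 was 4.70 times the SD between rows of one gene, and 3.08% of all measured genes were at least as far above 0. It lay between 1.11 and 1.14 over the 9 alternative settings. The filters and row choices among them could not change it, because Srm has 1 row.

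The spermine synthase gene Sms has no row of its own here. The row that lists it also lists the pseudogene Sms-ps, and it read 6.42 in the uninjured and 7.04 in the injured array. Its difference of 0.61 cannot be divided between the 2 listed genes. The promoter windows of Sms differed from each other, 1 with an E-box and no GC box and 1 with 4 GC boxes and no E-box.

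For Amd1, which makes the aminopropyl donor, the measured rows are those of its copies. Amd2, a copy listed as protein-coding, read 8.02 in the uninjured and 8.98 in the injured array, a difference of 0.96 that is just short of 2-fold. The pseudogene rows Amd-ps1 (6.43 and 7.28), Amd-ps3 (9.70 and 10.59) and Amd-ps4 (9.76 and 10.58), chosen after their values were seen, differed by 0.85, 0.89 and 0.81. All 4 rows of this family thus differed by a similar amount in the same direction. They are copies of 1 parent sequence, so they are not separate observations, and which locus the signal comes from is uncertain.

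The regulators of ornithine decarboxylase read nearly alike in both arrays. Azin1, the antizyme inhibitor, read 8.48 in the uninjured and 8.68 in the injured array, a difference of 0.20 that was 0.812 times the SD between rows of one gene. Oaz1, antizyme itself, is listed with the pseudogene Oaz1-ps and the microRNA Mir1982 on a row that read 10.02 and 10.09, a difference of 0.07 that cannot be assigned to any of them alone. Among the relatives outside the 10 members, Oaz2, a second antizyme, read 5.66 uninjured and 5.43 injured, and Azin2, a second inhibitor, read 6.33 and 6.51. These differences of -0.24 and 0.18 were also smaller than the SD between rows of one gene. The injured Oaz2 value is just below the low-signal level of 5.44.

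The 2 catabolic enzymes differed in opposite directions, both by less than 2-fold. Sat1, the acetyltransferase that marks spermidine and spermine for export or oxidation, read 9.22 in the uninjured and 9.50 in the injured array. Its difference of 0.29 was 1.18 times the SD between rows of one gene. Smox, the oxidase that turns spermine back into spermidine and releases hydrogen peroxide, read 8.82 and 8.34. The Smox difference of -0.48 was 1.99 times that SD, and 10.8% of all measured genes were at least as far below 0. Sat2, a relative of Sat1, read 5.76 and 5.63, close to the low-signal level. Paox, the oxidase of acetylated polyamines, has no row named for it here. The promoter windows of both catabolic members are shown because their readings lay on either side of 0, with GC boxes in capitals, 2 for Sat1 and 6 for Smox.
Sat1 promoter, chrX:155216450-155216699, minus strand: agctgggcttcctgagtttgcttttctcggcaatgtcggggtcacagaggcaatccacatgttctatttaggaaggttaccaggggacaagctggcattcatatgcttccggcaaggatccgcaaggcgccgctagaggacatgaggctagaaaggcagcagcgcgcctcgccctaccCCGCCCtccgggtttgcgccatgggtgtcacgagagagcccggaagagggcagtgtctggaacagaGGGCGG
Smox promoter, chr2:131491612-131491861, plus strand: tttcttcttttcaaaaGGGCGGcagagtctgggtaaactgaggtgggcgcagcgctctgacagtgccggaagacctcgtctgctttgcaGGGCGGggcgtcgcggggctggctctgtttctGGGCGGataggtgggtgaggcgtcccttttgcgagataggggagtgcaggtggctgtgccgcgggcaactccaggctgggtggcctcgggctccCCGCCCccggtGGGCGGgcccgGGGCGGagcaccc

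**Figure D2:**
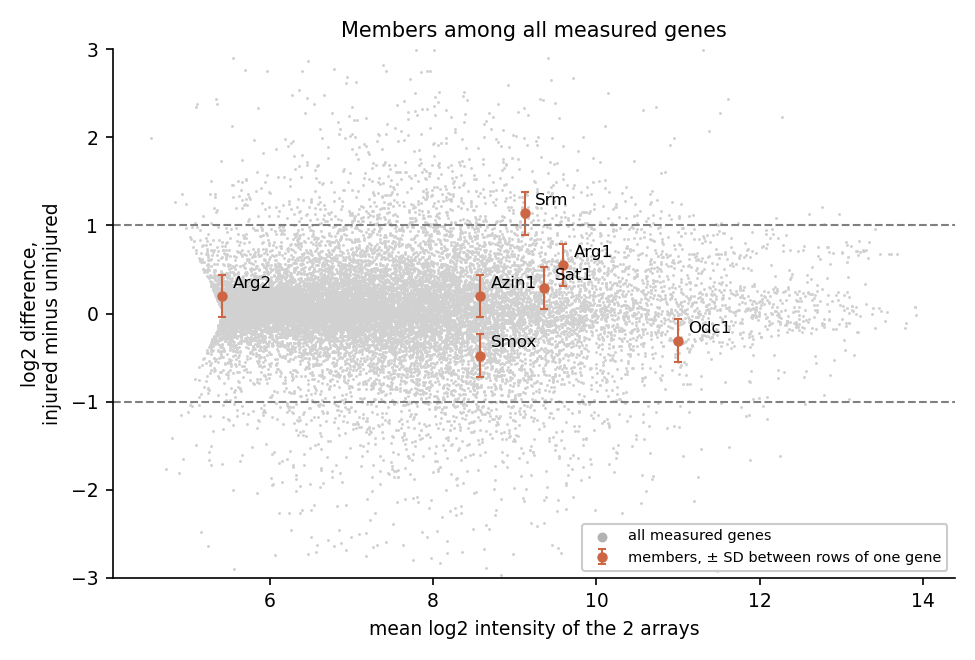
The x axis is the mean log2 intensity of the 2 arrays and the y axis the log2 difference, injured minus uninjured. Grey points are all 19492 measured genes, of which 86 lie beyond the plotted range of 3, and bars on the 7 members are the SD of 0.243 between rows of one gene. Srm lies above the dashed 2-fold line at 1.14, and the other members lie between the 2 dashed lines.

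The genes around the members were read from 6 lists of 68 genes, of which 55 were measured. Past the 2-fold call, 7 of the 55 (12.7%) were higher and 2 (3.64%) lower, beside the 4.14% and 3.92% of all measured genes given above. The lists were chosen with earlier results of these data known, so these shares only describe the listed genes. The median difference was 0.18, beside 0.06 over all measured genes. Another 7 genes of the lists were below the low-signal level, 1 was on a shared row only, and 5 have no row named for them here.

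Polyamine transport genes held both directions. Atp13a3, a transporter for polyamine uptake, read 8.34 in the uninjured and 9.63 in the injured array, a difference of 1.29. It was the 1 of 9 measured neighbours called higher and 0 were called lower, beside 4.14% and 3.92% of all measured genes. Its relative Atp13a2, the lysosomal polyamine exporter, read 7.93 and 7.61, a difference of -0.32. Slc18b1, a vesicular polyamine transporter, read 8.45 and 7.87, a difference of -0.58. Slc3a2, the heavy chain shared by several amino acid exchangers, read 9.72 and 10.54, a difference of 0.82. The list median was 0.18.

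Spermidine feeds the hypusine of eIF5A. Of 4 measured genes of that step 0 passed 2-fold, beside 4.14% higher and 3.92% lower among all measured genes. All 4 differences were above 0, from 0.18 to 0.61 with a median of 0.23, beside 57.0% of all measured genes at least 0.01 above 0. Differences of 2 of the 4 were smaller than the SD of 0.243 between rows of one gene, and that of Dhps (0.25) was close to it. Eif5a itself read 10.92 in the uninjured and 11.52 in the injured array. Dhps, which attaches the aminobutyl group of spermidine, read 7.10 and 7.35, and Dohh, which hydroxylates it, read 6.81 and 7.01.

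The methionine cycle supplies S-adenosylmethionine and recovers the by-product of polyamine synthesis. There the call gave 2 of 14 measured genes higher and 0 lower, beside 4.14% and 3.92% of all measured genes. Mtap, the phosphorylase that cleaves methylthioadenosine left over by Srm and Sms, read 7.99 in the uninjured and 9.48 in the injured array, a difference of 1.49 (2.81-fold). Ahcy, the hydrolase of S-adenosylhomocysteine, has 2 rows, which read 8.08 and 9.84 on the brighter and 7.66 and 9.55 on the dimmer, so that both rows differed by a similar amount, 1.76 and 1.89. All 4 listed enzymes of the later salvage steps stayed within 2-fold. Apip, a dehydratase of that route, read 8.33 and 7.43 with a difference of -0.90, and Mri1, Enoph1 and Adi1 differed by 0.28, 0.21 and 0.08. No row is named for Mat2a, the S-adenosylmethionine synthetase, in the annotation used here. The list median was 0.24.

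Among genes of arginine supply and transport, 10 were measured. The call gave 2 higher and 1 lower, beside 4.14% and 3.92% of all measured genes, with a list median of 0.11. The higher ones were the amino acid exchanger subunits Slc7a5 (8.57 uninjured, 10.29 injured, difference 1.72) and Slc7a6 (6.05 and 7.29, difference 1.23), both of which pair with Slc3a2. Their place in this list does not show that either carries arginine. Slc7a1, the general importer of cationic amino acids, read 9.74 in both arrays, and Slc7a2, another such importer, was below the low-signal level in both (5.24 and 5.28). Cps1, the carbamoyl phosphate synthetase of the urea cycle, read 6.35 in the uninjured and 5.10 in the injured array. The injured value is below the low-signal level, so the size of the Cps1 difference of -1.25 is uncertain. Asl, which releases arginine from argininosuccinate, read 7.68 and 7.71. Ass1, the enzyme before it, is listed with the pseudogene Gm5424 on a row that read 8.97 and 10.26, a difference of 1.29 that cannot be divided between them.

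Enzymes that use arginine for other ends held 1 higher and 1 lower call among 12 measured genes. Over all measured genes the shares were 4.14% and 3.92%. The list median was 0.10. Ddah1, which degrades methylated arginines that inhibit nitric oxide synthases, read 8.51 in the uninjured and 6.89 in the injured array, a difference of -1.62 (3.07-fold lower). Prmt5, which methylates arginine residues in proteins, read 9.04 and 10.09, a difference of 1.05. Its relatives Prmt1, Prmt3 and Prmt6 differed by 0.81, 0.70 and 0.19, short of 2-fold. The nitric oxide synthases Nos2 (5.37 and 5.46) and Nos3 (6.34 and 6.41) read nearly alike in both arrays, with the uninjured Nos2 value below the low-signal level.

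Ornithine is also exchanged with proline and glutamate. There the call gave 1 of 6 measured genes higher and 0 lower, beside 4.14% and 3.92% of all measured genes. The list median was 0.09. Aldh18a1, the synthase that makes the shared precursor of proline and ornithine from glutamate, read 7.05 in the uninjured and 8.99 in the injured array. At 1.94 (3.83-fold) it had the largest difference of the 55 measured pathway genes. Oat, which interconverts ornithine and that same precursor, read 10.93 and 10.20, a difference of -0.73. The promoter window of Aldh18a1 is shown as that of the largest difference, with 1 GC box and 1 E-box in capitals.
Aldh18a1 promoter, chr19:40588464-40588713, minus strand: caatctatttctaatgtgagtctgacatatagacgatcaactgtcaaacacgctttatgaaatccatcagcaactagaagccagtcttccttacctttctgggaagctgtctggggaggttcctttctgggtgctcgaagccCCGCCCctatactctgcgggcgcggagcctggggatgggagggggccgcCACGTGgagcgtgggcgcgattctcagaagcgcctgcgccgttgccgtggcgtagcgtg

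**Figure D3:**
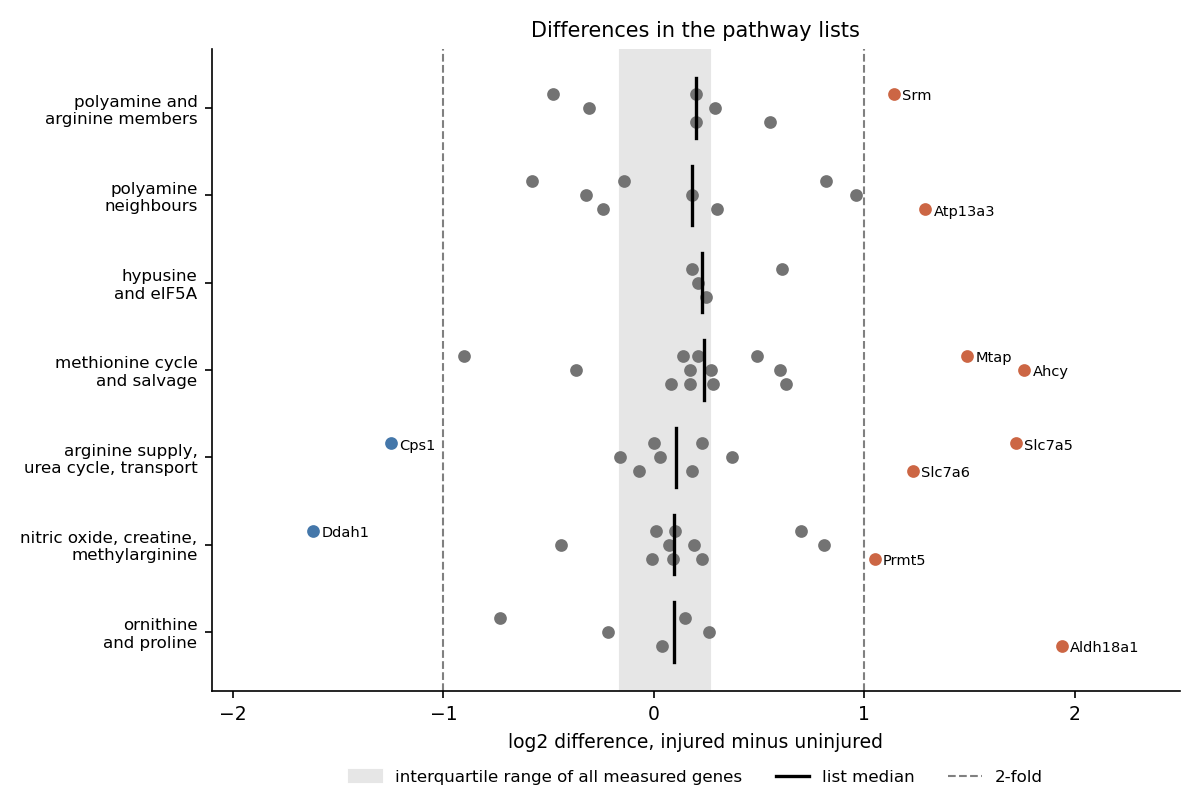
The x axis is the log2 difference, injured minus uninjured, and each point is a measured gene of the list on the y axis, with the black bar at the list median. The grey band is the interquartile range of all measured genes, from -0.16 to 0.27, and the named points are the 8 genes called higher and the 2 called lower.

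The labelled tissue was checked against its markers. The epithelial keratin Krt5 read 13.85 in the uninjured and 13.69 in the injured array, and Pax6, the transcription factor of eye tissue, read 10.63 and 9.31. Over all measured genes the 2-fold call gave 4.14% higher and 3.92% lower, the shares to set beside each count in this paragraph. Of 7 measured corneal epithelium markers 5 were called lower and 1 higher, with a median difference of -2.68. The summed linear intensity of the list was 69800 in the uninjured and 28600 in the injured array. The lower ones were Lypd2 (-7.49), Slurp1 (-6.61), the corneal keratin Krt12 (14.07 and 10.85), the crystallin Aldh3a1 (-2.68) and Pax6, and the higher one was the basal keratin Krt14 (2.23). Of 9 stromal markers the keratocyte proteoglycans Kera and Lum were below the low-signal level in both arrays, while 6 were measured, among them the collagens Col1a1 (7.29 and 7.18), Col1a2 (6.66 and 6.53) and Col3a1 (6.51 and 6.35). Dcn, another proteoglycan (6.09 and 4.77), was the 1 stromal marker called lower, and 0 were called higher. Its injured value is below the low-signal level, so the size of the Dcn difference is uncertain. Of 13 neutrophil markers 4 were below that level in both arrays. Among them was S100a8 (3.77 uninjured, 5.32 injured), so its difference of 1.55 is uncertain. Of the 9 measured, Ltf and S100a9 were called higher, with a median difference of 0.14. Ly6g, Mpo, Elane and Camp differed by 0.14, 0.04, -0.06 and 0.01. The summed linear intensity of the 13 neutrophil markers was 718 in the uninjured and 2950 in the injured array, and 489 and 706 without Ltf. Of 7 conjunctival and goblet markers 2 were called higher, Krt19 (10.58 and 11.68) and Krt7 (9.22 and 10.56), and 1 lower, Muc5ac (7.07 and 5.81). The keratins Krt13 (12.06 and 11.77) and Krt4 (11.85 and 11.98) were bright in both arrays. Spdef and Agr2 differed by 0.07 and 0.29. The part of these marker differences in the values above was not tested.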

How the data were processed

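RNA was amplified into biotinylated cRNA, 2 µg per sample, and hybridised to 2 microarrays, per the labels' protocols. The deposited table holds log2 intensities made by the authors for 65952 rows, from 2.54 to 14.1, and no scale or centring step is stated. The submitters' processing notes name Agilent Feature Extraction 9.1, whereas biotin labelling and row names in the form of transcript clusters point to another array type, so what probes a row combines is unknown. How background was corrected, probes summarised and arrays normalized, and on which genome build, is not given in those sources. Column medians were 5.44 (injured) and 5.43 (uninjured), less than the set limit of 0.1 apart, so values were kept as deposited. The number of arrays limits the precision.

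Rows were named from the platform annotation, updated through RefSeq of GRCm38.p6: 31219 rows carry 1 gene, 1527 several and 33206 none. A gene was measured when the brighter value of a row naming it alone reached 5.44, the median of the table, and the row with the highest mean stood for it. That left 19492 genes of 30671. Values were computed in Python 3.11.15 and the steps were tested on simulated data. With 1 array per group no test was run. Alternatives covered scaling, filters, row choice, an added constant of 16 and thresholds. Members and lists were chosen with earlier results of these data known. Named were all members, 20 pathway genes fixed by name, and any further list gene past 2-fold, and genes such as Slc18b1, Apip, Mri1, Enoph1, Adi1, Prmt1, Prmt3 and Prmt6, the Amd pseudogenes and the cell type markers were named after their values were seen, and the marker sums without Itgam or Ltf were chosen after seeing the data.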

Additional observations from a re-analysis of the deposited data

How the results depend on the processing

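With 1 array in each group no interval can be given for any difference, and probes near the low-signal level cannot show one. The 7 members' differences kept their sign under every scaling, filter, row choice and added constant that gave a value, 62 values in all. Each moved by less than the SD of 0.243 between rows of one gene. Every measured member has 1 row, so the filters and row choices could not change its value. Only the scalings and the added constant could move it. Arg2 has no value with the filter at the 75th percentile. Over these settings the members' median lay between 0.19 and 0.24, and with the Sms and Oaz1 rows counted, an alternative chosen after seeing the data, it was 0.20. With the filter at the 75th percentile the median of the polyamine neighbours was 0.82 and that of the nitric oxide, creatine and methylarginine list 0.36, over fewer genes. At 4-fold 0 members were higher. Among all genes 2165 were at least 1.5-fold and 138 at least 4-fold higher, and 1708 and 152 lower. The 2 groups are the injured and fellow eyes of the same wounded animals, but with 1 array in each no paired test was possible.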
